A study of Mus musculus with 40 samples.

Results

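The 9 genes described here are the mammalian Hedgehog ligands Shh, Ihh and Dhh, the receptors Ptch1 and Smo, the ligand-binding inhibitor Hhip and the transcription factors Gli1, Gli2 and Gli3. They are a fixed list of names, each of which matched 1 of the 55536 genes of the mouse annotation. No cut-off on a measured value was used to pick them, but earlier results of these data were known when the list was chosen. What was measured was the presence, width and strength of peaks of 2 histone marks at their promoters, taken as 2000 bp upstream to 1000 bp downstream of each annotated transcript start in the mouse assembly mm10.

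The study asked how the oncohistone H3.3 K27M, in which lysine 27 of the histone variant H3.3 is replaced by methionine, changes oligodendrocyte precursor cells (OPCs) of different brain regions. Chromatin immunoprecipitation with sequencing (ChIP-seq) was used to map H3K27me3, the mark laid down by Polycomb repressive complex 2 at silenced genes, and H3K4me3, a mark of active or poised promoters. A promoter with both is called bivalent. K27M cultures came from FVB mice with the H3-3a-LSL-K27M knock-in allele, which makes the mutant protein from its own locus once Cre has removed a stop cassette, together with hGFAP-Cre, written AMGFAP-Cre in the labels, which acts in embryonic neural stem and progenitor cells. The control cultures came from littermates. For both genotypes the tissue of several pups at postnatal days 5 to 7 was pooled by region and genotype, so each culture is a pool of animals, and the sexes were not separated. The telencephalon cultures were made from cortex, corpus callosum and hippocampus. Cells that bound an anti-PDGFRa antibody were kept after depletion of endothelial cells and microglia, and were grown undifferentiated with forskolin, CNTF, neurotrophin-3 and PDGF. There were 2 culture pairs from brainstem (59 and 61) and 3 from telencephalon (59, 60 and 61), each with a control and a K27M member, which gave 10 libraries per mark.

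In Hedgehog signaling, a secreted ligand binds Ptch1, which releases Smo from inhibition, and Smo then acts through Gli proteins to switch target genes on. Ptch1, Hhip and Gli1 are themselves targets of the pathway, and Gli2 and Gli3 carry most of the activator and repressor function. In the developing neural tube Shh from the floor plate and notochord patterns the ventral progenitors from which many OPCs arise.

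Promoter sequences of 300 bases, 250 before and 50 after the start, were available from RefSeq (GRCm38.p6, the assembly also called mm10) for 7 of the 9 genes, all but Shh and Gli1. Those of Ihh, Dhh, Ptch1 and Gli3 are printed because they span the patterns below: Ihh and Gli3 had H3K27me3 in every library, Dhh in some and Ptch1 in none. They are on chr1:74951623-74951922 (minus strand), chr15:98898491-98898790 (minus), chr13:63565686-63565985 (minus) and chr13:15463473-15463772 (plus), and capitals mark each CG dinucleotide.
Ihh: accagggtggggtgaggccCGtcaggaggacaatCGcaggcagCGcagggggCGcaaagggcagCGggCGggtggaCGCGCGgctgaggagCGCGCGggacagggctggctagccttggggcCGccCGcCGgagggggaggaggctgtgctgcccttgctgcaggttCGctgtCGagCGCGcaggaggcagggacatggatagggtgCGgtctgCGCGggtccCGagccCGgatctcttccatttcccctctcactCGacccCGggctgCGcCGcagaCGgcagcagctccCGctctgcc
Dhh: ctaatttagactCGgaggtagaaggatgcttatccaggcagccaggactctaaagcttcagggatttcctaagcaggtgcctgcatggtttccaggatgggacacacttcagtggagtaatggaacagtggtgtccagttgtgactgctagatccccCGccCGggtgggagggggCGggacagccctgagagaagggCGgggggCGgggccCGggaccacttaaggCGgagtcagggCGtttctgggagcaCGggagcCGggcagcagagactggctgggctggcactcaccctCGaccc
Ptch1: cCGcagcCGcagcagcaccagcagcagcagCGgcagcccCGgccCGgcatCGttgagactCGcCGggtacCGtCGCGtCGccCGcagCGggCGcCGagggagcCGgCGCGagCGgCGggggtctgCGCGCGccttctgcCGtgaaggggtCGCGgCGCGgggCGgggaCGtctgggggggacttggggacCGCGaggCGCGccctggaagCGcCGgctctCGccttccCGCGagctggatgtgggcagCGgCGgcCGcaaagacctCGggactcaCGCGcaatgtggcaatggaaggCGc
Gli3: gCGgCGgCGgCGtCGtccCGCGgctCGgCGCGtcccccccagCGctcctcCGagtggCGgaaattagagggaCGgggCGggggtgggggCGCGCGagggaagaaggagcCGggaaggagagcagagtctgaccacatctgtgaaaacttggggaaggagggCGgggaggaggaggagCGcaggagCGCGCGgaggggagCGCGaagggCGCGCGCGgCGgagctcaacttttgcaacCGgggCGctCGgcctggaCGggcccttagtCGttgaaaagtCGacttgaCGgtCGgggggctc

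Ptch1, without H3K27me3, had the most CG dinucleotides of the 7, namely 47, a number reached by 1.44% of the 32851 RefSeq promoters of the same length. Gli3 had 39 (4.45% of promoters reach this), Ihh and Hhip had 30 each (11.7%), Gli2 had 28 (14.2%), Smo had 17 (31.4%) and Dhh had 12 (39.6%), against a median of 7. All 7 were above the median, and among them the number of CG dinucleotides did not separate promoters with and without H3K27me3. The 9-base GLI binding motif TGGGTGGTC, searched on both strands (GACCACCCA on the other), was in 0 of the 7 windows and in 0.253% of all RefSeq promoters. This says only that these letters are not in these windows.

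H3K27me3 lay at the promoters of the Gli factors and the ligands Shh and Ihh, and was absent or nearly so from those of the receptors and Hhip. Shh, Ihh, Gli1, Gli2 and Gli3 carried an H3K27me3 peak at the promoter in 10 of 10 libraries, control and K27M alike, whereas 3.28% of all genes did. Dhh carried one in 7 of 10 libraries. Ptch1 carried one in none, and Smo and Hhip in 1 library each, the same control brainstem culture 59. H3K4me3 was at the promoters of 7 of the 9 genes in 10 of 10 libraries, as at 28.7% of all genes, and at those of Ihh and Dhh in 8. Shh, Gli1, Gli2 and Gli3 had both marks in every library, as did 1.43% of all genes, though at Gli2 not always on the same bases.

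**Figure D1:**
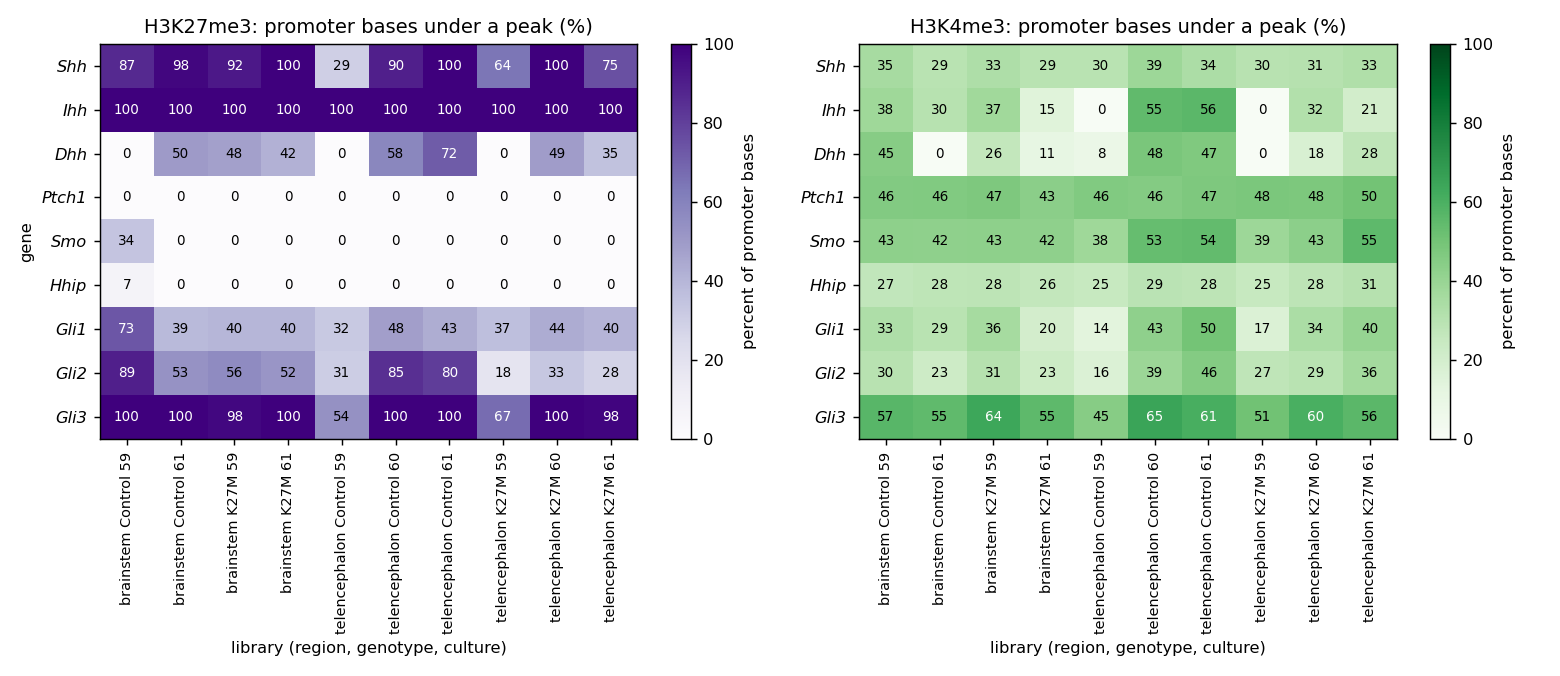
Percent of each gene's promoter bases (all windows merged) that lay under a peak, for H3K27me3 on the left and H3K4me3 on the right, with 9 genes in rows and the 10 libraries of each mark in columns, written in each cell. The H3K27me3 panel is filled for Shh, Ihh and the Gli genes in every column, and empty for Ptch1; the H3K4me3 panel is filled almost throughout.

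With peaks shared between control cultures by combining the evidence of at least 2 of them, 5 of 9 genes were bivalent in brainstem controls (Shh, Ihh, Gli1, Gli2 and Gli3), beside 4.59% of all genes. In telencephalon controls 6 of 9 were bivalent, the same genes and Dhh, beside 7.3% of all genes. Ptch1, Smo and Hhip had H3K4me3 only in both regions. When either telencephalon control 60 or 61 was left out, or a peak was required in every culture, Ihh and Dhh were no longer bivalent in the telencephalon and 4 genes remained. The files hold pooled cells, so a smaller share of cells with a mark and less of the mark per cell cannot be told apart, and it is not known whether both marks lay on the same chromosomes.

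The K27M libraries had shorter H3K27me3 lists, with 4739 to 15753 peaks over 13.3 to 41.4 Mb against 12715 to 64808 peaks over 26.5 to 152 Mb in controls, but their strongest peaks had higher fold enrichment over input, with a maximum of 11.7 to 38.7 against 7.48 to 21.2. The H3K4me3 lists held 20961 to 31200 peaks. Telencephalon culture 59 had the shortest H3K27me3 list of its genotype in both members, and the H3K4me3 lists of telencephalon controls 60 and 61 reached a fold enrichment of 157 and 104, against 23.4 to 64.7 in the other 8. H3K4me3 peaks lay at the promoters of 5 of 5 OPC markers (Pdgfra, Cspg4, Olig1, Olig2 and Sox10) in all 10 libraries, with H3K27me3 at none, and at 0 of 4 microglial markers. Of the endothelial markers Pecam1 and Cdh5 had none and Cldn5 had H3K4me3 in 5 libraries and H3K27me3 in all 10. Of the 4 astrocyte markers Slc1a3 had H3K4me3 in 10 libraries, Gfap and Aldh1l1 in 6 each and Aqp4 in 1. H3K27me3 was at Gfap in 5 libraries, at Aldh1l1 in 4, at Slc1a3 in 2 and at Aqp4 in 0. The 4 neuronal markers had H3K4me3 in all 10. Among them Rbfox3 also had H3K27me3 in all 10, Syt1 in 4, Snap25 in 2 and Tubb3 in 1. The peak lists hold no read counts, so the reads behind a single peak are unknown here. In the sequencing totals that the authors published, both members of telencephalon culture 59 exceeded every other H3K27me3 library. The part of depth in the length of a list was not tested.

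Shh (ENSMUSG00000002633.4, chr5:28456815-28467256, minus strand), the ligand that patterns the ventral neural tube, lay under a single H3K27me3 domain that spanned the gene. In 8 of 10 libraries this domain began 0.928 to 2.56 kb upstream of the start and ended 10.5 to 12.4 kb downstream, past the end of the 10.4 kb gene. The promoter coverage in brainstem culture 59 was 86.7% in control and 92.1% in K27M, with 98.0% and 100% in culture 61. The telencephalon pairs had 29.4% and 64.3% (culture 59), 89.6% and 100% (culture 60) and 100% and 75.1% (culture 61). The control cultures 59 of both regions had the domain in 2 pieces, of which 3.54 kb and 1.73 kb reached the promoter, but 88.7% and 85.5% of the gene body was still covered.

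H3K4me3 at Shh was far narrower and one-sided. Its peak began within 157 bp of the start on either side in all 10 libraries and ran 2.90 to 4.14 kb into the gene, so that 29.5% to 38.6% of the promoter was covered and the part further upstream was free of it. The 2 noncoding genes 9530036O11Rik and Gm26894 begin in the same window on the opposite strand, at 272 and 882 bp from the Shh start, and the mark cannot be assigned to one strand. Both marks lay over the same 881 to 1157 bp of the Shh promoter in each culture.

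The authors' fold enrichment over input of the strongest H3K27me3 peak reaching the Shh promoter was higher in K27M in all 5 pairs. So was that of 46.4% of the 1820 genes with a peak in every library. This measure is relative to the background of its own library and does not give the amount of the mark. At Shh it was 2.54 in control and 18.1 in K27M in brainstem culture 59, and 6.90 and 16.5 in culture 61. The telencephalon controls 59, 60 and 61 had 2.03, 12.3 and 8.05, against 4.96, 18.1 and 14.7 in their K27M partners. In the control cultures 59, where the domain was in pieces, the piece that did not reach the promoter had 6.40 in the brainstem and 2.50 in the telencephalon. Within each pair K27M was above control, but the groups overlapped because both members of telencephalon culture 59 were low. The mean difference on the log2 scale was 1.36 ± 0.88 (SD of the differences, n = 5 pairs; exact sign-flip permutation test, two-sided, p = 0.063, adjusted p = 0.12 over 1820 genes). With 5 pairs the smallest p of this exact test is 0.063, so no gene could pass 0.05. By fold enrichment the peak was at rank 163 to 378 of its library in the 5 K27M libraries and at rank 193 to 260 in 3 controls, but at rank 13696 and 11962 in the control cultures 59 of brainstem and telencephalon.

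**Figure D2:**
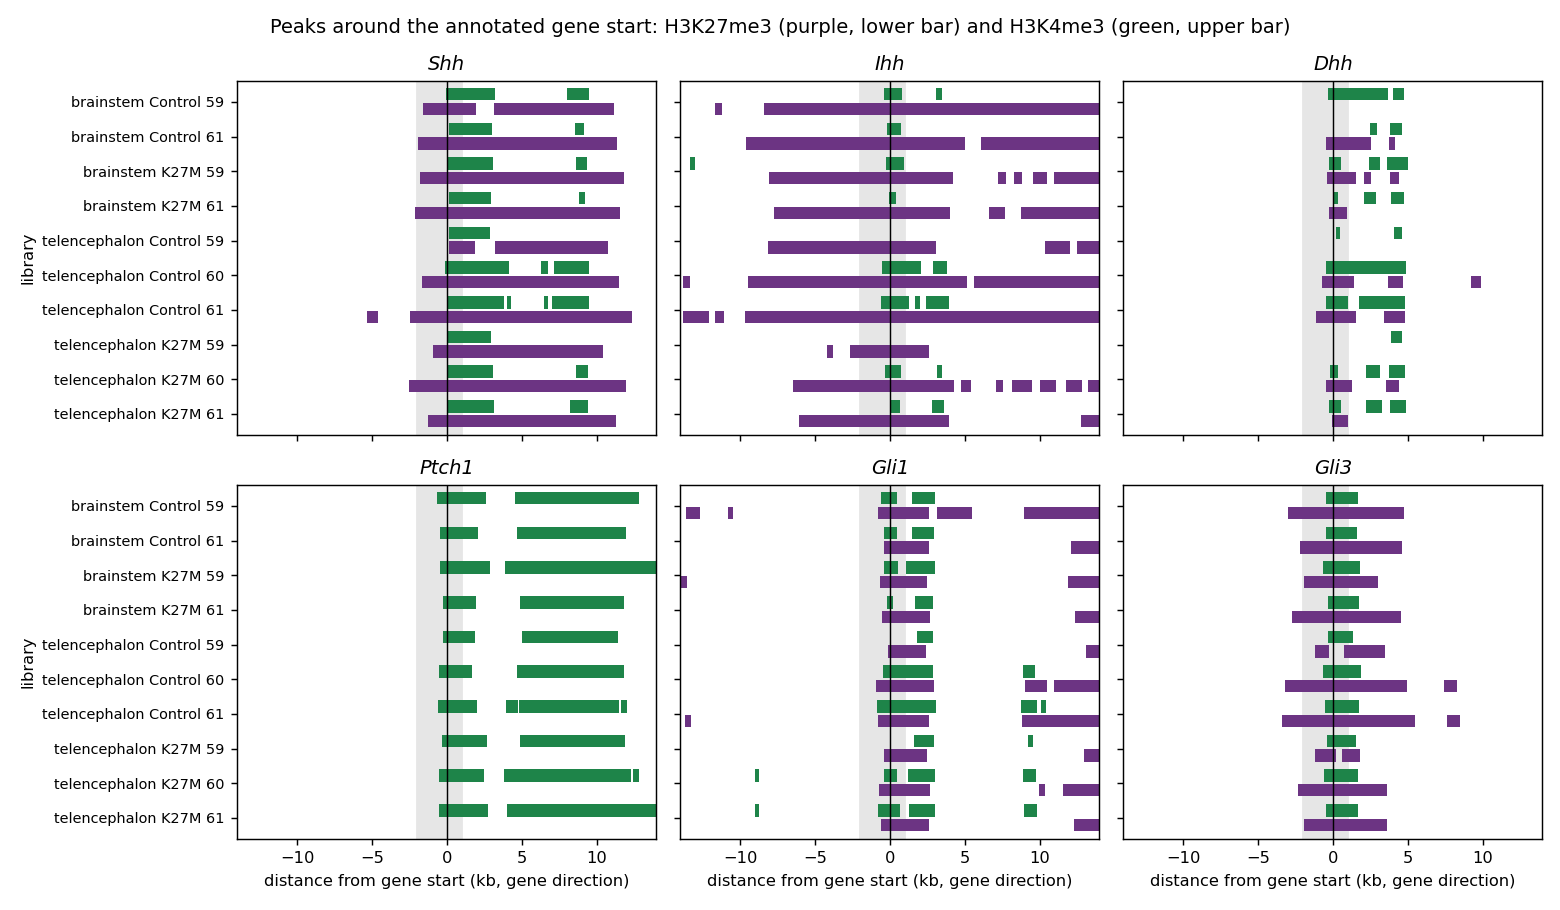
Positions of H3K27me3 (purple) and H3K4me3 (green) peaks as distance in kb from the annotated gene start, in the direction of the gene, for 6 genes and all 10 libraries (rows), with the promoter window of that start shaded in gray. H3K27me3 spanned Shh in 8 of 10 libraries, reached to both sides of the Ihh start in all 10, formed a compact block at Gli1 and Gli3 and was missing at Ptch1, where H3K4me3 formed at least 2 blocks in each row.

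Ihh (ENSMUSG00000006538.12, chr1:74945315-74951672, minus strand), the ligand best known from the growing skeleton, was the gene with the most complete H3K27me3, with 100% of its promoter covered in all 10 libraries. The length of the peak that reached the promoter, taken here as the domain, differed between genotypes. It measured 31.6 kb in control and 12.3 kb in K27M in brainstem culture 59, and 14.7 and 11.8 kb in culture 61. In telencephalon cultures 59, 60 and 61 it measured 11.2, 14.6 and 42.6 kb in control and 5.26, 10.8 and 10.0 kb in K27M. It was shorter in K27M in 5 of 5 pairs, but the values of the groups overlapped between 11.2 and 12.3 kb. The mean difference was −12.9 ± 12.8 kb (SD, n = 5 pairs; exact permutation p = 0.063, adjusted p = 0.44). Without telencephalon culture 61, whose control had the longest domain, it was −8.00 kb. Separate peaks further downstream are not in these lengths. In controls brainstem 61 and telencephalon 60 one ran from 6093 to 23818 bp and from 5612 to 23840 bp downstream. Control telencephalon 59 had one from 12516 to 20495 bp. In K27M brainstem 59 and 61 one ran from 10941 to 22138 bp and from 8762 to 21982 bp. In K27M telencephalon 60 and 61 one ran from 13254 to 21603 bp and from 12792 to 15711 bp. Shorter peaks lay nearer the start in some of these libraries. In controls brainstem 59 and telencephalon 61 a single peak reached 23.2 and 32.9 kb downstream. A shorter domain can therefore be a tract called in pieces, and the part of this in the difference was not tested.

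While the Ihh domain was shorter, its peak had a higher fold enrichment in K27M in all pairs. So did 46.4% of the 1820 genes with a peak in every library, and the measure is relative to the background of each library. The fold enrichment in the brainstem was 5.49 and 6.54 in controls 59 and 61 and 15.9 and 18.1 in their K27M partners. In the telencephalon it was 2.97, 11.0 and 5.68 in controls 59, 60 and 61 and 6.69, 17.1 and 16.3 in K27M. Ihh thus had 1.56 to 2.90 times the fold enrichment of the paired control, a log2 difference of 1.27 ± 0.38 (SD, n = 5; exact permutation p = 0.063, adjusted p = 0.12), with culture 59 of the telencephalon again lowest in both genotypes.

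H3K4me3 at Ihh was narrow and varied with the culture. It covered 38.0% and 30.4% of the promoter in brainstem controls 59 and 61 and 37.4% and 14.8% in K27M. In the telencephalon it was 0% in both members of culture 59, 54.5% in control and 31.9% in K27M in culture 60, and 56.0% and 20.6% in culture 61. The coverage was lower in K27M in the 4 pairs that had a peak, with a mean difference of −14.9 ± 15.1 points (SD, n = 5; exact permutation p = 0.13, adjusted p = 0.87). The largest differences were in the 2 pairs whose controls were the telencephalon libraries with the highest H3K4me3 fold enrichment, and the part of that in the result was not tested.

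Dhh (ENSMUSG00000023000.5, chr15:98891152-98898540, minus strand), the ligand of Schwann cells and of the testis, had H3K27me3 in some libraries of each genotype and not in others. In the brainstem it covered 0% of the promoter in control 59 and 49.9% in control 61, against 48.0% and 41.5% in K27M. In the telencephalon it covered 0%, 58.0% and 71.8% in controls 59, 60 and 61 and 0%, 48.9% and 35.2% in K27M. Neither genotype was above the other throughout, with a difference of −1.22 ± 30.8 points (SD, n = 5; exact permutation p = 1.0). Where the peak was present it was weak, at 3.17 to 4.24 times input in controls and 3.41 to 3.97 in K27M. H3K4me3 covered 44.6% and 0% of the Dhh promoter in brainstem controls 59 and 61 and 26.2% and 10.7% in K27M. In the telencephalon it covered 8.47%, 48.3% and 46.5% in control and 0%, 17.6% and 27.7% in K27M. It was lower in K27M in 4 of 5 pairs (−13.1 ± 15.5 points, SD; exact permutation p = 0.19, adjusted p = 0.87). By the mean absolute difference of promoter coverage over all 20 libraries, the protein-coding genes most like Dhh were Tmem179 (9.76 points), Cysrt1 (11.3) and Lsr (11.9).

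Ptch1 (ENSMUSG00000021466.12, chr13:63508328-63573598, minus strand), which encodes the ligand receptor, was free of H3K27me3 at all 5 of its merged promoter windows in 10 of 10 libraries. A trace in the gene body, 1.09% of its length, was present in control brainstem culture 59 alone. H3K4me3 covered 43.5% to 50.1% of the promoter bases. A window of 4920 bp that holds internal protein-coding starts was covered to 100% in every library, and the window at the 5′ end of the gene to 44.6% to 58.0%. Of the other 3, all at noncoding transcripts, 1 was covered to 35.6% to 65.8% and 2 to 0%. The difference between genotypes was 1.01 ± 2.19 points (SD, n = 5; exact permutation p = 0.31, adjusted p = 0.90), 4 pairs higher in K27M. Counting only protein-coding transcripts the sign turned, to −1.20 points.

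Smo (ENSMUSG00000001761.7, chr6:29735503-29761365, plus strand), the transmembrane transducer, had H3K4me3 over 38.2% to 55.3% of its promoter in all 10 libraries. The single H3K27me3 peak, in control brainstem culture 59, lay upstream of the start, with its far end 2.15 kb away, had a fold enrichment of 2.17 and a −log10 q of 1.80, and was at rank 40678 of 54227 peaks. Hhip (ENSMUSG00000064325.4, chr8:79965851-80058006, minus strand), which binds and sequesters the ligands, had H3K4me3 over 24.8% to 30.5% of its promoter bases in all libraries. Its single H3K27me3 peak, in the same library, also lay upstream, with its far end 1.11 kb away, and had a fold enrichment of 2.22 and rank 35454. That library held the second longest H3K27me3 list of all, and neither peak was seen in control brainstem culture 61. The genes most like Smo were Edil3 (1.88 points), Ankrd34c (2.03) and Cryl1 (2.11), and those most like Hhip were Ptpn11 (0.62), Rnf165 (0.75) and Arglu1 (0.79), each with H3K27me3 in 1 library and H3K4me3 in 10.

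Gli1 (ENSMUSG00000025407.7, chr10:127329882-127341974, minus strand), the activator that is itself a target of the pathway, carried a compact H3K27me3 peak of nearly constant position, which began 0.149 to 0.911 kb upstream of the start and ended 2.42 to 2.92 kb downstream. In brainstem control 59 a second peak further into the gene also reached the promoter windows, which hold several starts. Outside these windows a separate, wider H3K27me3 peak began 8833 to 13133 bp downstream of the start in every library. Its fold enrichment ranged from 2.84 in telencephalon control 59 to 15.2 in K27M brainstem 61, and it is not part of the promoter values below. H3K27me3 covered 73.2% and 38.7% of the promoter bases in brainstem controls 59 and 61 and 40.1% and 40.2% in K27M. In the telencephalon it covered 32.4%, 48.4% and 43.0% in controls and 36.7%, 43.7% and 40.3% in K27M. The K27M values lay between 36.7% and 43.7%, inside the spread of the controls, and the difference was −6.95 ± 15.1 points (SD, n = 5; exact permutation p = 0.44, adjusted p = 0.78). Without the pair of brainstem culture 59 it was −0.39 points.

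The fold enrichment of the Gli1 peak was higher in K27M in 5 of 5 pairs, as was that of 46.4% of the 1820 genes with a peak in every library. The fold enrichment was 7.54 and 5.78 in brainstem controls and 13.6 and 13.6 in K27M, and in the telencephalon it was 2.38, 12.3 and 7.01 in controls and 3.98, 14.2 and 14.7 in K27M. The log2 difference was 0.82 ± 0.39 (SD, n = 5; exact permutation p = 0.063, adjusted p = 0.12). H3K4me3 at Gli1 lay in 2 blocks in 6 libraries, one at the start and a stronger one that began 1104 to 1657 bp and ended 2900 to 3024 bp downstream. The blocks were joined in telencephalon controls 60 and 61, and both members of telencephalon culture 59 had only the second. The mark covered 29.4% to 49.8% of the promoter in controls other than telencephalon 59 (13.6%) and 16.8% to 40.3% in K27M. Both marks shared 620 to 3403 bp of the Gli1 promoter.

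**Figure D3:**
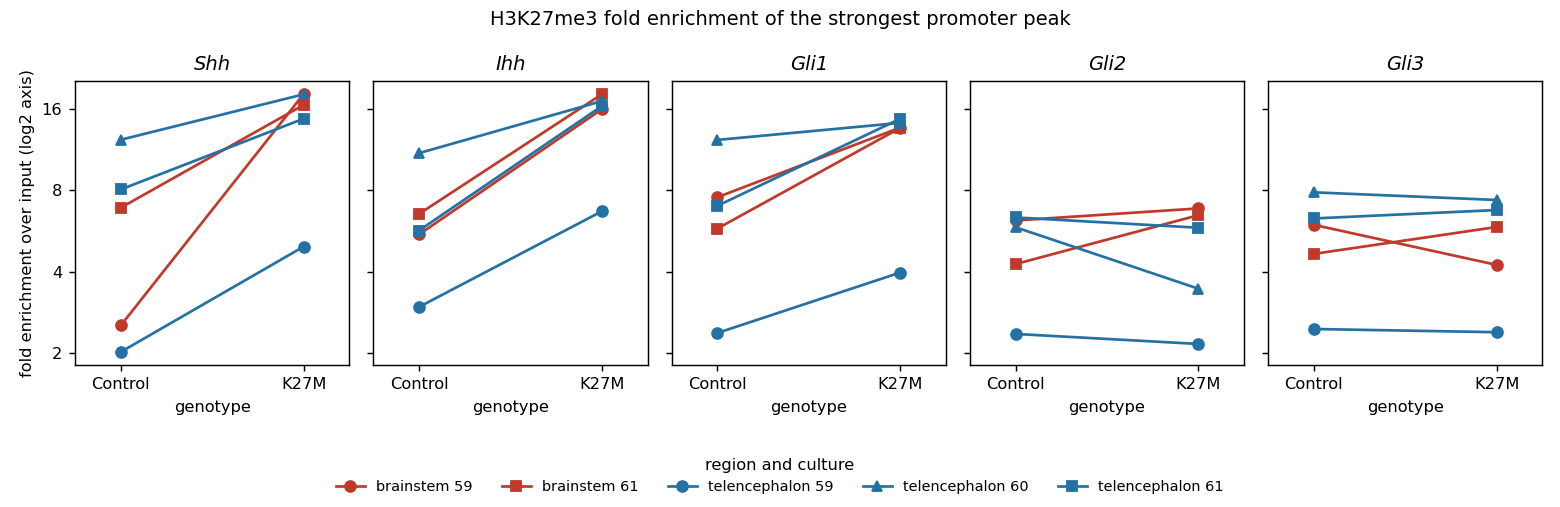
Fold enrichment over input of the strongest H3K27me3 peak reaching the promoter (log2 axis) for the 5 genes with a peak in all 10 libraries, with a line for each control and K27M pair, brainstem in red and telencephalon in blue. All 5 lines run upward for Shh, Ihh and Gli1, and lines run both ways for Gli2, where the strongest peak can be at either of 2 starts, and for Gli3.

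Gli2 (ENSMUSG00000048402.14, chr1:118834132-119053619, minus strand), the main activator, kept an H3K27me3 peak in every library but with less of the promoter covered in K27M. Its promoter coverage was 89.5% and 53.4% in brainstem controls and 56.1% and 51.8% in K27M. In the telencephalon it was 30.7%, 85.0% and 80.5% in controls and 18.3%, 32.9% and 27.8% in K27M. Coverage was lower in K27M in 5 of 5 pairs, with a difference of −30.5 ± 23.1 points (SD; exact permutation p = 0.063, adjusted p = 0.50). Gli2 was the 1 member of 8 tested for which this held, and 10.5% of the 14153 genes tested did so. No member had higher coverage in all pairs, and 0.134% of genes did. At the first start of the gene the coverage ranged from 25.2% to 79.9% in controls and from 13.7% to 34.5% in K27M, and at a noncoding start inside the gene from 36.8% to 100% and from 20.4% to 81.8%. The summed length of the peaks at both starts was 13.7 and 10.5 kb in brainstem controls and 11.6 and 6.81 kb in K27M, and 3.02, 13.3 and 9.50 kb against 1.70, 4.28 and 5.02 kb in the telencephalon (difference −4.14 ± 3.02 kb, SD; exact permutation p = 0.063, adjusted p = 0.44). When each list was cut to the same number of peaks the coverage difference was −8.39 points, that in length was −1.97 kb, and neither was the same way in all pairs.

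The fold enrichment at Gli2 did not follow that of Shh, Ihh and Gli1. It was 6.19 and 4.27 in brainstem controls and 6.85 and 6.47 in K27M, and 2.36, 5.84 and 6.35 in telencephalon controls and 2.17, 3.47 and 5.82 in K27M. These values are not always of the same peak, because the strongest one lay at the first start in 4 controls and 1 K27M library and at the noncoding start, over 65 kb into the gene, in the other 5. At the first start the fold enrichment was 6.19 and 3.41 in brainstem controls and 3.47 and 5.25 in K27M. There it was 2.36, 5.84 and 6.35 in telencephalon controls and 1.91, 3.34 and 5.82 in K27M, so that it was lower in K27M in 4 of 5 pairs (log2 difference −0.29 ± 0.60, SD, n = 5; exact permutation p = 0.31, adjusted p = 0.43). At the noncoding start it was higher in K27M in 3 of 5 pairs, with a log2 difference of 0.25 ± 0.43 (SD). H3K4me3 sat at the first start of Gli2 in all 10 libraries and covered 16.4% to 45.7% of the promoter in controls and 22.9% to 36.4% in K27M. Both marks shared 0 bp of the Gli2 promoter in telencephalon control 59 and 143 to 1645 bp in the other libraries.

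Gli3 (ENSMUSG00000021318.15, chr13:15463235-15730026, plus strand), the main repressor, had H3K27me3 over 97.7% to 100% of its promoter in every culture except telencephalon 59, where it was 53.9% in control and 67.2% in K27M. The domain reached 1.91 to 3.39 kb upstream and 3.03 to 5.46 kb downstream in those other 8 libraries. It measured 7.75 and 6.82 kb in brainstem controls and 4.95 and 7.31 kb in K27M, and 3.77, 8.15 and 8.84 kb in telencephalon controls and 2.60, 5.97 and 5.58 kb in K27M. It was shorter in K27M in 4 of 5 pairs (−1.79 ± 1.49 kb, SD; exact permutation p = 0.13, adjusted p = 0.44). The fold enrichment was 5.96 and 4.66 in brainstem controls and 4.24 and 5.85 in K27M, and 2.46, 7.86 and 6.29 against 2.40, 7.36 and 6.76 in the telencephalon, so that pairs went both ways (log2 difference −0.04 ± 0.30, SD). H3K4me3 covered 44.8% to 65.1% of the Gli3 promoter in all libraries, across the start and, outside telencephalon culture 59, within the H3K27me3 domain. The noncoding gene Gm6556 starts 13 bp away on the opposite strand.

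**Figure D4:**
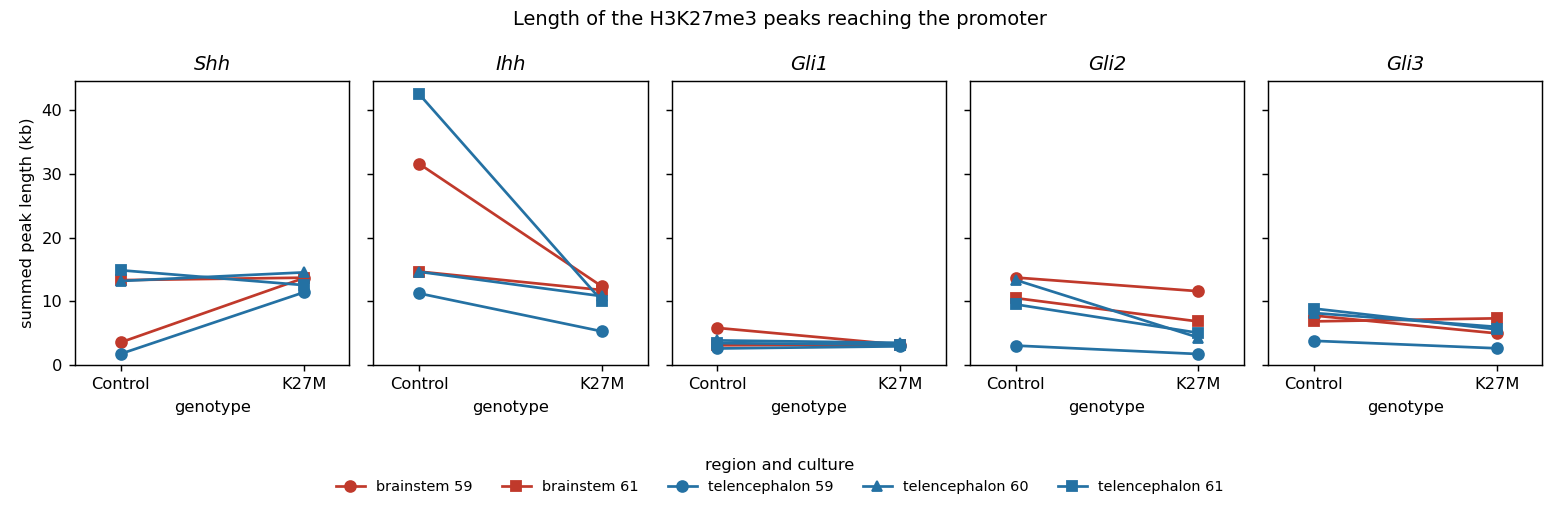
Summed length in kb of the H3K27me3 peaks that reach the promoter, for the same 5 genes, with a line for each control and K27M pair, brainstem in red and telencephalon in blue. All 5 lines run downward for Ihh and Gli2, and 4 of 5 run upward for Shh, the 2 of culture 59 from short control values of 3.54 and 1.73 kb.

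Of the 5 members with H3K27me3 in every library, 3 (Shh, Ihh and Gli1) had a higher fold enrichment in K27M in all 5 pairs, while 46.4% of the 1820 genes with such peaks did, and 0 had a lower one, while 3.68% did. The median log2 difference of the 5 members was 0.82 and that of the 1820 genes was 0.43. In all 5 K27M libraries Shh and Ihh held the first and second rank among the members by fold enrichment and Gli1 the third, whereas in controls the first rank was held by Shh in 3, Ihh in 1 and Gli1 in 1. On the log2 scale the K27M means were 3.81 ± 0.60 for Ihh, 3.72 ± 0.80 for Shh, 3.44 ± 0.81 for Gli1, 2.31 ± 0.66 for Gli3 and 2.18 ± 0.71 for Gli2 (SD, n = 5). The means of Ihh, Shh and Gli1 differed from each other by less than these SDs, as did those of Gli3 and Gli2. The SDs are between cultures and do not measure the order of genes within a library. For domain length, 2 of 8 members tested (Ihh and Gli2) were shorter in K27M in all pairs, beside 13.2% of genes, and none was longer, beside 0.141%. The median difference in H3K27me3 promoter coverage was −1.32 points over the 8 members and −9.01 points over all 14153 genes. Among the 8, Ihh was covered to 100% in every library, and Smo and Hhip had a peak in 1 library each, which limits how far these could differ.

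For H3K4me3 no member had a coverage that differed the same way in all 5 pairs, in either direction. Of the 20007 genes tested, 0.65% had lower and 5.23% higher coverage in K27M in all pairs. The median difference was −1.70 points over the 9 members and 0.69 over all genes, and the smallest adjusted p over all genes was 0.87.

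By region, the number of members with an H3K27me3 promoter peak was 7 and 6 in brainstem controls 59 and 61 and 5, 6 and 6 in telencephalon controls 59, 60 and 61, and in K27M it was 6 and 6 and 5, 6 and 6. Of all 55536 genes, 18.3% and 10.4% had such a peak in brainstem controls 59 and 61, against 5.78% and 6.86% in K27M. For telencephalon cultures 59, 60 and 61 the shares were 6.12%, 16.4% and 20.2% in control, against 3.75%, 7.41% and 5.90% in K27M. The share of all genes was thus lower in K27M in every pair, while the number of members was nearly the same. Regions were not tested against each other, because 2 and 3 cultures allow only 10 splits. The control fold enrichment of Shh, Ihh, Gli1, Gli2 and Gli3 in the brainstem lay within the range of the 3 telencephalon controls for each gene.

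The rest of the pathway was counted in 3 lists. Of 7 genes for ligand release and co-receptors, Scube2, which helps release the ligand, and Cdon, a co-receptor, had H3K27me3 in all 10 libraries. Over all genes 3.28% did. Boc, a co-receptor, had H3K27me3 in 3 controls and in no K27M library, and Disp1 in 1 control. Single control libraries had an H3K27me3 promoter peak at 6.12% to 20.2% of all genes, and single K27M libraries at 3.75% to 7.41%. The share of all genes with peaks in controls only is not given here, for this list or the next 2. Scube2 coverage averaged 53.2% in control and 17.6% in K27M and was lower in 5 of 5 pairs (−35.6 ± 28.7 points, SD; exact permutation p = 0.063, adjusted p = 0.50). It was the 1 gene of the list for which this held, beside 10.5% of the 14153 genes tested. Cdon had 41.2% and 37.5%. Boc covered 24.3% in brainstem control 59, 20.6% and 64.7% in telencephalon controls 60 and 61, and 0% elsewhere.

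Of 12 genes of signal transduction between Smo and the Gli proteins, none had H3K27me3 in all libraries and 4 had it in at least 1. Over all 55536 genes, 3.28% had it in all libraries and 14153 genes had it in at least 1. Csnk1a1, a casein kinase, had it in 5 of 5 controls (7.80% to 13.8% of the promoter) and 1 of 5 K27M libraries (4.44%). Its coverage was lower in all 5 pairs (−9.66 ± 3.68 points, SD; exact permutation p = 0.063, adjusted p = 0.50), as was that of 10.5% of the genes tested. Spop, a ubiquitin ligase adaptor, had it in 2 controls and Kif7 and Arl13b, both of the primary cilium, in 1 control each. H3K4me3 was at 11 of the 12 in all 10 libraries, and at Gpr161 neither mark was found in the windows of the annotation.

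Of 8 target genes, 3 had H3K27me3 in all libraries, beside 3.28% of all genes. They were Foxa2, Foxf1 and Nkx6-1, which encode transcription factors of ventral or mesodermal tissue. Their fold enrichment was higher in K27M in all 5 pairs, with log2 differences of 1.30, 1.31 and 1.28. So was that of 46.4% of the 1820 genes with such peaks, and fold enrichment is relative to the background of each library. That of Foxa2 was 6.03 to 16.3 in controls and 10.9 to 33.7 in K27M. Nkx2-2, a factor of ventral progenitors and of the OPC lineage, had H3K27me3 in 2 controls (8.61% and 5.03% of the promoter, telencephalon 60 and 61) and in 3 K27M libraries (63.8% in brainstem 61, 31.3% and 91.9% in telencephalon 60 and 61). Its coverage was higher in K27M in the 3 pairs with a peak (34.7 ± 39.1 points, SD, n = 5; exact permutation p = 0.25, adjusted p = 0.58). Mycn had it in 1 control, and Olig2, Ccnd1 and Bcl2 in none. H3K4me3 at Nkx6-1 was seen in 3 controls and at Foxa2 in 2 controls, and in no K27M library. Single control libraries had an H3K4me3 promoter peak at 29.6% to 34.2% of all genes, and single K27M libraries at 30.6% to 33.4%.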

How the data were processed

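Peak lists of 20 ChIP-seq libraries (5 culture pairs, 2 marks) were used. Per the labels, the authors used BWA 0.7.17-r1188 on mm10. MACS2 2.2.7.1 then compared every library with a matched input, in broad mode for H3K27me3. The deposited columns used are a ratio, namely fold enrichment, with −log10 values of p and of q. The deposited score column was left aside. Fold enrichment is relative to the background of its own library, and the Drosophila chromatin added to each sample did not enter the peak calls, so a peak list does not give the total amount of a mark. The 20 inputs were not analysed here.

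The promoters of all 55536 genes were taken from GENCODE M21 and merged per gene. Computed for each gene were the percent of promoter bases under a peak, the summed length of H3K27me3 peaks reaching the promoter and the highest fold enrichment among them (log2, genes with a peak in all 10 libraries; this last measure was chosen after seeing the data). Control states used peaks combined over at least 2 cultures, by Fisher's method (stringent and weak limits on p: H3K4me3 1e-10 and 1e-06, H3K27me3 1e-08 and 1e-04). K27M and control were compared over 5 matched pairs with exact sign-flip permutation tests, two-sided (32 arrangements), adjusted by Benjamini-Hochberg over all genes with a peak. The study's methods match the cultures. As a check, deviations of promoter peaks from group means correlated between members of a pair with r = 0.56, 0.20 and 0.35 for H3K4me3 and 0.30, 0.22 and −0.04 for H3K27me3 in telencephalon cultures 59, 60 and 61, and 0.01 and −0.01 in the brainstem. Nothing says that a culture number names the same litter in both regions. Pools of animals are the replicates.

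All 9 members are named, and 1 gene of the list of ligand release and co-receptors is not reported here. Likeness was computed for members with H3K27me3 in some but not all libraries. Members, gene lists and tests were chosen with earlier results of these data known. Functions were tested on simulated data (Python 3.11.15, numpy 2.4.6). Alternatives were a −log10 q or fold enrichment of at least 3, windows of 1000 and 500 bp, an overlap of 500 bp, equal numbers of peaks, protein-coding transcripts, no block, 1 unit per culture number and each pair left out.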

Additional observations from a re-analysis of the deposited data

Results flagged for a closer look

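The H3K27me3 fold enrichment of the strongest peak at Gli2 differed in direction between regions, but this peak lay at different starts of the gene in some pairs. It was higher in K27M in both brainstem pairs, with a mean log2 difference of 0.37, and lower in all 3 telencephalon pairs, with a mean log2 difference of −0.33. At the first start alone 1 of the 2 brainstem pairs was higher (culture 61) and the other lower, so that the regions did not separate there. The difference between regions was not tested. No group had the 4 samples needed to look for single outlying libraries.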

How the results depend on the processing

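Of the 339 values of single genes recomputed, 25 changed direction, and no adjusted p passed 0.05 under any alternative that was tested. The sign-flip tests could not pass it under any setting, because their smallest p is 0.063 with 5 pairs and larger with fewer units. Of the 119 counts recomputed, 105 stayed within 1.5 times the reported one. The settings for fold enrichment were chosen after seeing the data. With a fold enrichment of at least 3, controls had a mean of 4.4 members with an H3K27me3 peak, 0 members had lower H3K27me3 coverage or shorter domains in K27M in all pairs and 0 had a higher fold enrichment, because 1 or more control peaks of each of these genes no longer counted. The coverage difference then turned to 5.45 points for Gli1 and −0.85 for Gli3 (H3K27me3) and to 3.79 for Shh, 5.94 for Smo and −9.42 for Gli3 (H3K4me3), and the Gli1 domain difference to 0.43 kb. The count of members with lower H3K27me3 coverage, 1 (Gli2) as reported, was 0 with a −log10 q of at least 3, with the shorter window and with equal numbers of peaks, and that of shorter domains was 1 with equal numbers of peaks. Gli3 turned to −4.21 points with the q limit, Ptch1 H3K4me3 to −1.20 with protein-coding transcripts, and with the shorter window Gli2 H3K4me3 to 1.59 and Gli3 to −0.97. The cause of these was not tested.

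Leaving out each pair in turn, the numbers of members with higher H3K27me3 coverage, higher H3K4me3 coverage, lower H3K4me3 coverage and longer domains in all remaining pairs each ranged from 0 to 1. The 1 was reached without telencephalon 61 for the first and the last, without brainstem 61 or telencephalon 60 for higher H3K4me3, and without brainstem 61 or telencephalon 59 for lower H3K4me3. The H3K27me3 coverage difference ranged from −1.76 (without telencephalon 59) to 13.2 (without telencephalon 61) points for Shh, from −13.5 (without brainstem 59) to 7.63 (without telencephalon 61) for Dhh, from −9.76 to −0.39 (without brainstem 59) for Gli1 and from −1.07 (without telencephalon 59) to 2.84 (without brainstem 59) for Gli3. That of H3K4me3 ranged from −2.38 to 0.42 for Smo, −4.43 to 0.65 for Gli2, −0.82 to 2.13 for Gli3 and −0.083 to 0.89 for Hhip, and the log2 fold enrichment difference from −0.21 to 0.12 for Gli2 and −0.13 to 0.075 for Gli3. The Ihh domain difference ranged from −15.4 to −8.00 kb (without telencephalon 61), and without telencephalon 61 that in Ihh H3K4me3 coverage was −9.73 points. At the noncoding start alone the Gli2 fold enrichment difference turned to 0.25.

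Without the replicate block that pairs cultures, exact permutation of genotype within regions (120 arrangements) gave an adjusted p of 0.27 for the Ihh domain difference of −12.9 kb and 0.19 for its log2 fold enrichment difference of 1.27, and changed no call. With 1 unit per culture number (3 units, smallest exact p 0.25) Gli3 H3K4me3 coverage turned to −0.22 points. A peak list shows neither H3K27me3 below the calling threshold nor the reads behind a peak, and the depth of a library limits both.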
